A study of Mus musculus with 9 samples.

Results

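The genes described here act in the cell cycle, most of them around the step from G1 into DNA replication. They are the E cyclins (Ccne1, Ccne2), the E2F transcription factors E2f1, E2f2, E2f3 and E2f8, and the pocket proteins Rb1, Rbl1 and Rbl2. The mitotic transcription factor Foxm1 is described with them. The genes were chosen by symbol, as every probe set annotated to 1 of these 10 genes alone, among 18193 genes with a probe set of their own. That gave 24 of the 45037 probe sets in the table, of which 21 had enough signal to be tested, among 27665 tested in all. One further probe set, annotated to Foxm1 together with 2 other genes, was left out. A probe set is a group of short probes whose brightness is summarised into 1 intensity per array.

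RNA came from CD45.1+ LKS+ bone marrow cells of C57BL/6 mice aged 8 weeks, and was measured on 9 Affymetrix arrays that cover the mouse transcriptome. LKS+ cells lack lineage markers, carry Kit and Sca-1 and hold the blood stem cells and early progenitors. There were 3 groups of 3 replicates: cells from leukemic mice at day 14, cells from leukemic mice at day 7, and cells from control mice. The labels describe the cells as normal stem cells in mice with AML (acute myeloid leukemia), name no leukemia line, allele or agent, give the controls no day, and call the replicates biological without saying that each came from its own animal or sort. The p-values therefore measure only the spread between these samples, and leukemia and the time point cannot be told apart in the comparisons with control. What the days count from is not stated in the labels.

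As background, cyclin E binds the kinase CDK2, and together with cyclin D kinases it phosphorylates the pocket proteins RB1, p107 (from Rbl1) and p130 (from Rbl2). Unphosphorylated pocket proteins hold E2F factors in check. Once released, the activators E2F1, E2F2 and E2F3 switch on genes of S phase entry and DNA synthesis, among them Ccne1, Ccne2, E2f1 itself and Rbl1. E2F8 is an atypical E2F that represses many of the same genes later in S phase. FOXM1 acts in G2 with the MuvB complex and switches on genes of mitosis. In adult marrow most stem cells rest in G0, and p130 is the pocket protein typical of resting cells.

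The day 14 arrays stood apart from the rest. Across tested probe sets, which are not independent replicates, the correlation of log2 intensity was 0.966 to 0.980 between day 14 and control arrays, 0.970 to 0.981 between day 14 and day 7 arrays and 0.984 to 0.993 between day 7 and control arrays, against 0.991 to 0.997 within groups. A probe set was called at an adjusted p below 0.05 in limma, with Benjamini-Hochberg adjustment over all tested probe sets. At that threshold 44.4% of all tested probe sets were called for day 14 against control (27.5% lower, 17.0% higher), 42.2% for day 14 against day 7 (25.7% lower, 16.5% higher), and 3.39% for day 7 against control (1.49% lower, 1.9% higher). Of the called probe sets 38.2% were higher for day 14 against control, a share that became 48.3% after quantile normalization and 61.6% after setting a common 75th percentile; for day 14 against day 7 the shares were 39.2%, 49.1% and 64.1%. The common 75th percentile moved the median change of all probe sets between the leukemic days, -0.02, to 0.11. All comparisons share samples, so their values are given side by side and not correlated. In sorted cells measured in bulk, fewer cells that express a gene and less RNA per cell cannot be told apart.

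At day 14, 12 of the 21 tested probe sets fell against control and 1, of Rb1, rose. At day 7, 3 probe sets rose, of E2f2 and Foxm1, and 0 fell in limma, with 11 higher and 0 lower at an unadjusted p below 0.05. The share of all tested probe sets at that unadjusted cut was not counted. Such counts, here and below, therefore have no background and are not read as results about these genes. Between the leukemic days, 16 probe sets were lower and 1 was higher at day 14. Thus 57.1% of the tested members were lower and 4.76% higher at day 14 against control, beside 27.5% and 17.0% of all tested probe sets. At day 7, 14.3% were higher, beside 1.9% of all. Between the leukemic days 76.2% were lower and 4.76% higher at day 14, beside 25.7% and 16.5% of all. The median log2 change of the 21 was -0.45 at day 14 and 0.24 at day 7, each against control, and -0.86 between day 14 and day 7, beside medians of -0.04, 0.00 and -0.02 over all tested probe sets. The day 14 arrays did not overlap the control arrays for 15 of the 21 probe sets, where 53.0% of all tested probe sets did not overlap. The day 14 and day 7 arrays did not overlap for 19, against 54.2% of all, and the day 7 and control arrays for 13, against 27.8% of all.

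**Figure D1:**
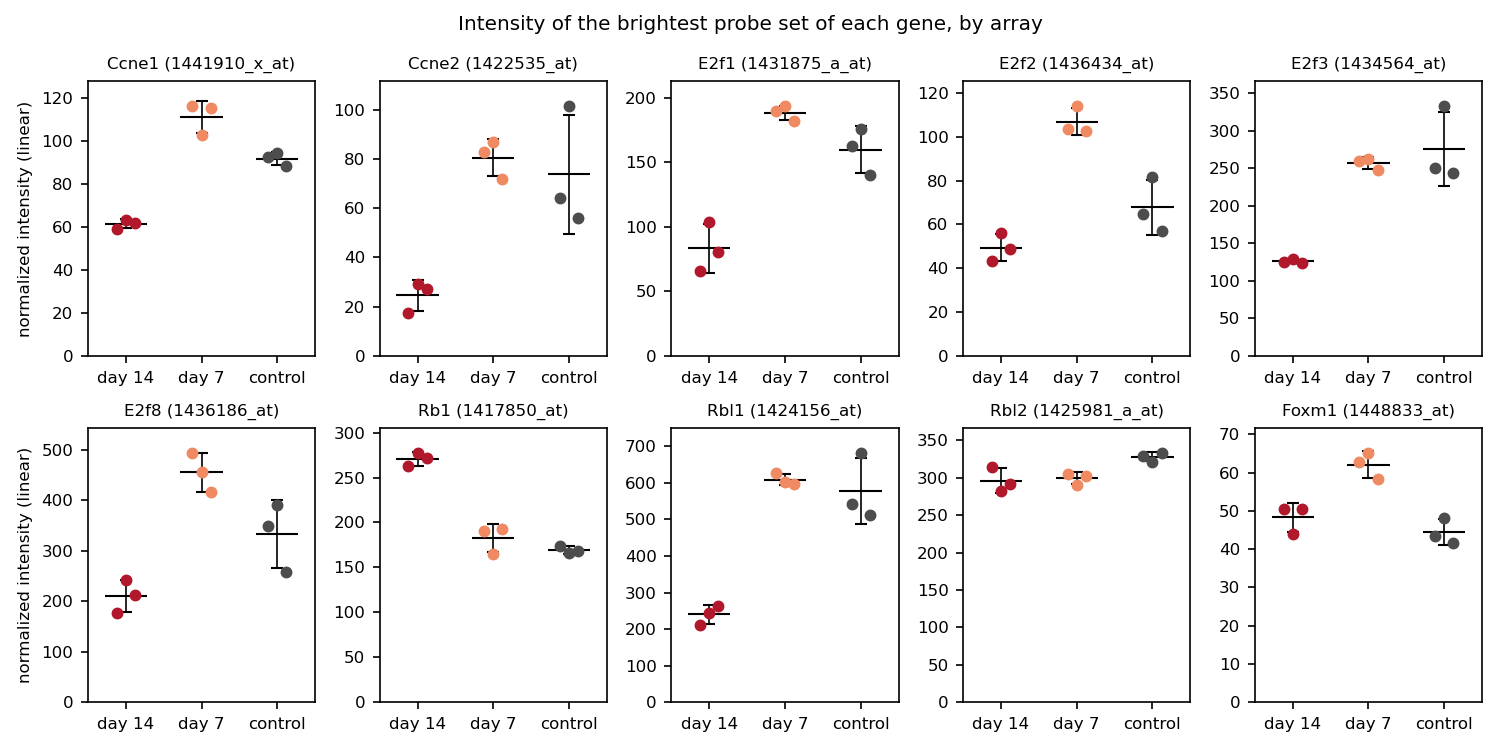
Normalized intensity (linear scale, starting at 0) of the brightest probe set of each of the 10 genes in the day 14, day 7 and control arrays; points are arrays, lines are means and bars are the SD of 3 arrays. The day 14 arrays lie below the control arrays for both E cyclins, the 4 E2F genes, Rbl1 and (by a smaller, uncalled difference) Rbl2, above them for Rb1, and overlap them for Foxm1.

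**Figure D2:**
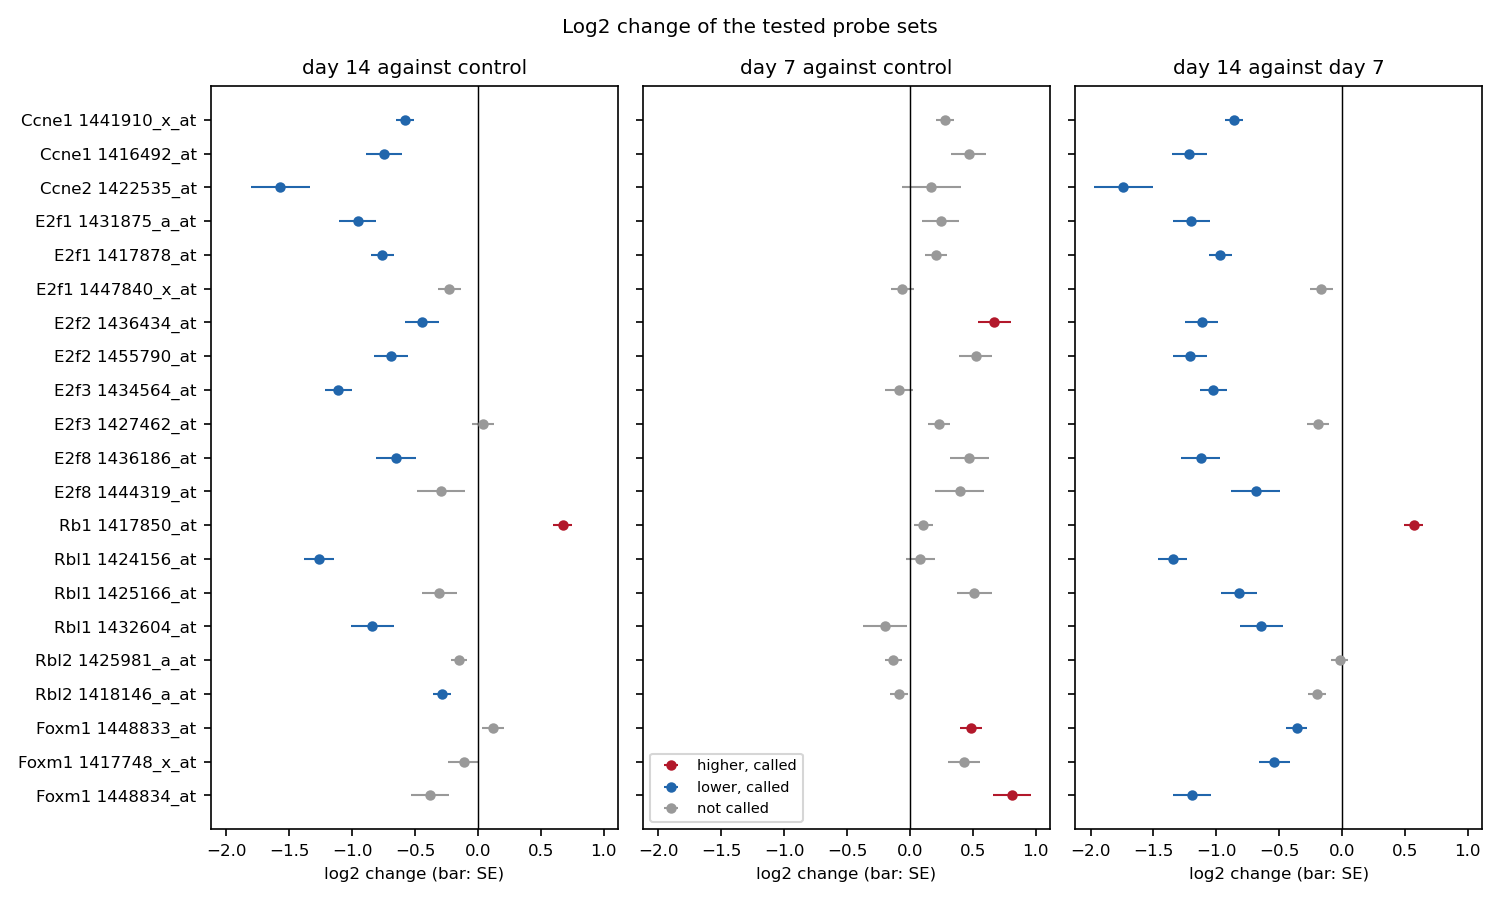
Log2 change with its SE for the 21 tested probe sets, in the 3 comparisons between groups, 1 panel each; coloured points passed the adjusted threshold and grey points did not. The values lie to the left of 0 for 18 of 21 probe sets at day 14 and to the right of 0 for 16 of 21 at day 7.

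The starts of these genes are shown first, since some of them are known E2F targets. A link between these sequences and the changes was not tested. Promoter windows, each running from 250 bases before to 50 after an annotated start, came from RefSeq on GRCm38.p6 and matched 7 of the 10 genes in 9 windows. Ccne2, Rb1 and Foxm1 had no entry. The E2F consensus was searched as the words TTTCCCGC, TTTCGCGC, TTTGCCGC and TTTGGCGC on both strands. It was present in 3 of the 9 windows, of E2f2, E2f3 and Rbl1, and in 2.26% of all 32851 windows. Within the 250 bases before the start it was present for E2f3 and Rbl1 alone, and in 1.86% of all windows. Whether an annotated start is the main start of its gene was not tested. The E2f1 window and the second E2f2 window may lie inside the gene, past its main start. The absence of the word there is therefore not read as its absence from the promoter of the gene. The 100 bases before the start are printed for the pair of genes with a match upstream of the start and for a pair without one that also fell at day 14; capitals mark the match.
Rbl1, chr2:157204535-157204634, minus strand: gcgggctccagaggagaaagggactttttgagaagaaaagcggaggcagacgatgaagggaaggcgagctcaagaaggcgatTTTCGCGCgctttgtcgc
E2f3, first start, chr13:29986064-29986163, minus strand: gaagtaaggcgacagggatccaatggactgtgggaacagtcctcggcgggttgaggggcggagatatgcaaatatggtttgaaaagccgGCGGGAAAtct
Ccne1, chr7:38107491-38107590, minus strand: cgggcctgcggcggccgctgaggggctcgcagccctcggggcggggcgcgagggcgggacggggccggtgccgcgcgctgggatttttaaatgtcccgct
E2f8, chr7:48881597-48881696, minus strand: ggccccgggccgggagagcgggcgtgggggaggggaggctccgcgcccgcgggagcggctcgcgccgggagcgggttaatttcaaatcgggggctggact
The Rbl1 match lay at bases -18 to -11 from the start, on the gene's strand, and the E2f3 match at bases -11 to -4, on the opposite strand. The E2f2 match, TTTGGCGC, lay after its first annotated start, at bases 40 to 47. The cell cycle element TTTGAA, known from genes bound by MuvB, was searched on both strands too and overlapped none of these matches. It lay at bases -23 to -18 of the E2f3 window printed and at bases -20 to -15 of the E2f8 window, where it reads ttcaaa, in 1 window each of E2f2 and Rbl2 too, and in 17.9% of all windows. These matches describe letters in a window and do not show that a factor binds there, nor does a window without them show the opposite.

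The E cyclins were lower at day 14 than in either other group. Ccne2, which encodes cyclin E2, fell at day 14. Its 1 probe set (1422535_at) measured 17.5, 29.2 and 27.1 in the day 14 arrays, 82.9, 86.7 and 72.0 in the day 7 arrays, and 64.3, 101 and 55.9 in the control arrays. The day 14 values all lay below the other 6, and the day 7 values lay within the range of the controls, which were spread widely by the high second replicate. Against control the day 14 level was 0.337-fold (log2 change -1.57, SE 0.23, adjusted p 0.00066), and against day 7 it was 0.299-fold (log2 change -1.74). The day 7 change of 0.17 had an adjusted p of 0.73. With an offset of 32 added before log2, which compresses changes of dim probe sets, the day 14 change was -0.88 against control and -0.995 against day 7, and both were still called.

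Ccne1, which encodes cyclin E1, was read by a pair of probe sets that moved alike. The brighter (1441910_x_at), whose suffix marks probes that can also bind other transcripts, measured 59.2, 63.2 and 62.0 at day 14, 116, 103 and 115 at day 7, and 92.6, 94.5 and 88.5 in control. The 3 groups did not overlap, with day 7 highest and day 14 lowest. The day 14 fall against control was 0.58 on the log2 scale (SE 0.07, adjusted p 0.00024), and the day 14 level was 0.553-fold that of day 7. For the dimmer probe set (1416492_at) the mean was 34.1 ± 7.84 at day 14, 77.8 ± 3.45 at day 7 and 56.5 ± 5.41 in control (SD, n = 3), again with no overlap. At day 7 both Ccne1 probe sets lay above every control array, by 0.28 and 0.47 in log2, but missed the threshold (adjusted p 0.063 and 0.097). Without day 14 replicate 2, which changes only the pooled spread, the dimmer one was called at day 7 (adjusted p 0.039).

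All 3 activator E2F genes fell at day 14 by their brightest probe sets. E2f1 (1431875_a_at) measured 65.7, 104 and 80.8 at day 14, 189, 193 and 182 at day 7, and 163, 176 and 140 in control. Each group was separate from the others, and day 14 lay at 0.515-fold of control (log2 change -0.96, SE 0.15, adjusted p 0.00079). A second E2f1 probe set (1417878_at) fell by 0.76 (SE 0.09), with means of 59.97 ± 5.10 at day 14, 117 ± 5.63 at day 7 and 102 ± 9.32 in control. The third (1447840_x_at) was close to the filter on dim signal in every array, between 13.4 and 18.9, and was not called, with a day 14 change of -0.23; it was called without day 14 replicate 2 (-0.30) and with quantile normalization (-0.29).

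E2f2, the next activator, lay on opposite sides of control at the leukemic days. Its brighter probe set (1436434_at) measured 43.4, 56.0 and 48.9 at day 14, 104, 114 and 103 at day 7, and 64.6, 81.7 and 56.9 in control. All day 7 values exceeded all controls and all day 14 values lay below them. The day 7 rise was 1.59-fold (log2 change 0.67, SE 0.13, adjusted p 0.031), and the day 14 level was 0.734-fold (log2 change -0.45, adjusted p 0.022). The day 14 call was lost under both other scalings of the arrays (adjusted p 0.065 with quantile normalization and 0.060 with a common 75th percentile) and without the second control array or the first or the third day 14 array (adjusted p 0.054 to 0.081). The day 7 call was lost when any 1 day 7 array, control replicate 1, control replicate 3 or day 14 replicate 3 was left out (adjusted p 0.051 to 0.096). With no filter on dim probe sets both calls were lost (adjusted p 0.080 at day 14 and 0.13 at day 7). Fitting only the 2 groups compared also ended the day 7 call (adjusted p 0.057). The dimmer probe set (1455790_at) fell by 0.69 at day 14 (adjusted p 0.0027) and lay 0.52 above control at day 7 (adjusted p 0.063), with means of 14.3 ± 1.25 at day 14, 33.3 ± 4.61 at day 7 and 23.2 ± 3.57 in control. Only 1 of its day 14 arrays lay above the 40th percentile of the array, and without control replicate 2 its day 7 difference was called (0.63, adjusted p 0.042).

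E2f3 gave different answers by probe set. The bright one (1434564_at) measured 125, 130 and 124 at day 14, 260, 263 and 249 at day 7, and 251, 333 and 244 in control. Day 14 was low and tight, while day 7 lay within the control range. Against control the day 14 level fell by 1.11 in log2 (SE 0.11, adjusted p 7.7e-05), and against day 7 the log2 change was -1.02. The dimmer one (1427462_at) measured 36.2, 41.6 and 40.5 at day 14, 42.8, 49.1 and 43.1 at day 7, and 35.5, 40.5 and 38.9 in control, and its day 14 change was 0.04 (adjusted p 0.71). Day 14 and control overlapped for it. The files do not say which E2f3 transcript each probe set reads.

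E2f8, the atypical E2F, followed the activators. The bright probe set (1436186_at) measured 177, 241 and 212 at day 14, 493, 456 and 417 at day 7, and 349, 389 and 259 in control. No group overlapped another, with a day 14 log2 change of -0.65 against control (SE 0.16, adjusted p 0.0078) and of -1.12 against day 7. The 1.39-fold level at day 7 against control missed the threshold (adjusted p 0.12). The dim probe set (1444319_at) was lower at day 14 than at day 7 (log2 change -0.69, adjusted p 0.016), and was not called against control on either day. Its call was lost without day 7 replicate 3 (adjusted p 0.063) and with no filter on dim probe sets (adjusted p 0.076).

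The 3 pocket protein genes went different ways at day 14. Rb1, which encodes the retinoblastoma protein, was the one member that rose. Its tested probe set (1417850_at) measured 262, 277 and 272 at day 14, 190.1, 165 and 193 at day 7, and 174, 166 and 168 in control. All day 14 arrays exceeded the other 6, and the day 7 arrays overlapped control. The rise was 1.597-fold against control (log2 change 0.68, SE 0.08, adjusted p 0.00014) and 1.48-fold against day 7. A second Rb1 probe set (1444400_at) was too dim to test: it lay above the 40th percentile in 2 day 14 arrays and in no day 7 or control array, at means of 14.9 ± 0.443, 13.0 ± 0.764 and 11.3 ± 1.38 for day 14, day 7 and control.

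Rbl1, which encodes p107, an E2F target as well as an E2F inhibitor, fell at day 14. The bright probe set (1424156_at) measured 211, 246 and 264 at day 14, 626, 603 and 597 at day 7, and 543, 681 and 512 in control. Day 14 lay apart from both other groups, and day 7 lay inside the control range. The level was 0.416-fold of control (log2 change -1.26, SE 0.12, adjusted p 5.7e-05) and 0.393-fold of day 7. A second probe set (1425166_at) had means of 92.0 ± 15.97 at day 14, 162 ± 21.1 at day 7 and 113 ± 15.5 in control. It was lower at day 14 than at day 7 (log2 change -0.82, adjusted p 0.0014) but not called against control on either day (-0.31 at day 14, adjusted p 0.11, and 0.51 at day 7, adjusted p 0.078); without day 14 replicate 2 the day 14 difference was called (-0.44, adjusted p 0.028). The third (1432604_at), near the filter, fell by 0.84 at day 14, with 1 day 14 array above the 40th percentile. Its lower level than at day 7 (-0.64) was not called without day 7 replicate 1 or day 14 replicate 1 (adjusted p 0.057 and 0.051), or with no filter on dim probe sets (adjusted p 0.066). A further one (1454293_at) lay below that percentile in all 9 arrays, between 4.95 and 8.49, and was not tested.

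Rbl2, which encodes p130, was called in 1 probe set at day 14 and in none at day 7. The brighter probe set (1425981_a_at) measured 314, 282 and 292 at day 14, 305, 291 and 302 at day 7, and 329, 322 and 333 in control. The leukemic arrays all lay below the controls, but by 0.15 and 0.13 in log2 at day 14 and day 7 (SE 0.07 each), and neither difference was called (adjusted p 0.087 and 0.28). The day 14 difference was called without day 14 replicate 1 (-0.19, adjusted p 0.048), with an offset of 32 and with no filter. The other probe set (1418146_a_at) fell by 0.29 at day 14 (SE 0.07, adjusted p 0.012), a call that was lost with quantile normalization (-0.15) and with a common 75th percentile (-0.16). Its difference between the leukemic days, -0.20 (adjusted p 0.054), was called without day 14 replicate 1 (-0.25, adjusted p 0.028). For the brighter probe set the difference between the leukemic days was -0.02, and turned positive under both scalings (0.08 and 0.11).

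Foxm1, which encodes the factor of mitotic genes, rose at day 7 and was lower again at day 14. The brightest probe set (1448833_at) measured 50.4, 44.0 and 50.5 at day 14, 62.7, 65.1 and 58.2 at day 7, and 43.5, 48.1 and 41.5 in control. Day 7 was separate from both other groups, and day 14 overlapped control. The rise at day 7 was 1.40-fold (log2 change 0.48, SE 0.09, adjusted p 0.022), the log2 change of day 14 against day 7 was -0.36, and the day 14 change against control was 0.12 (adjusted p 0.27). A common 75th percentile turned that last value into a called rise of 0.24 (adjusted p 0.047) and took the call from the difference between the leukemic days (-0.23, adjusted p 0.056).

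The other Foxm1 probe sets shared the day 7 direction and differed at day 14. The probe set 1448834_at measured 33.3, 34.98 and 31.9 at day 14, 90.8, 75.3 and 65.1 at day 7, and 43.7, 53.1 and 35.4 in control. Its day 7 rise was 1.76-fold (adjusted p 0.025), the log2 change of day 14 against day 7 was -1.19, and that against control was -0.38, with no overlap but an adjusted p of 0.066. Without control replicate 3 the difference from control was called (-0.53, adjusted p 0.015), as it was with the replicate number as a block (adjusted p 0.035). The probe set 1417748_x_at was not called against control on either day (0.43 at day 7, adjusted p 0.084, and -0.11 at day 14, adjusted p 0.48), and was lower at day 14 than at day 7 (-0.54, adjusted p 0.0061). Another probe set (1437138_at) read 2.23 to 2.60 in all arrays, below the floor applied before testing, and was not tested. The day 7 calls of the first pair rested on few arrays: 1448833_at lost its call without control replicate 3 or any 1 day 7 array, and 1448834_at without control replicate 1, control replicate 3, day 7 replicate 1 or day 7 replicate 2. Both calls were also lost with no filter on dim probe sets (adjusted p 0.092 and 0.13). Fitting only the 2 groups compared ended that of 1448834_at (adjusted p 0.066).

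**Figure D3:**
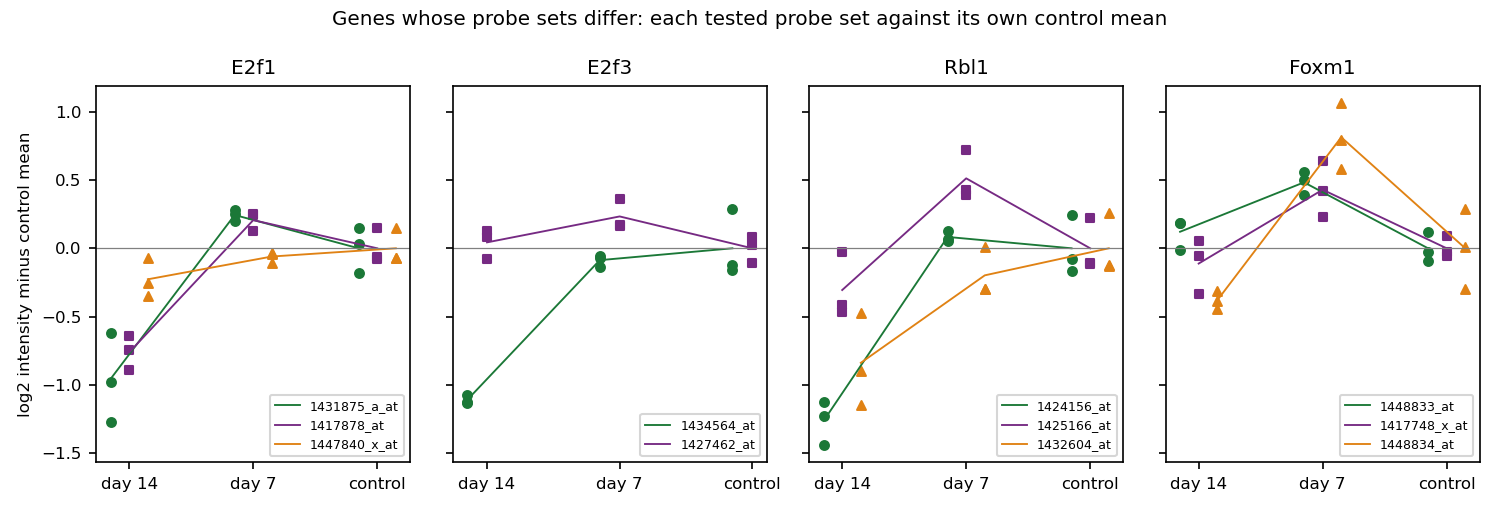
Log2 intensity of each tested probe set of E2f1, E2f3, Rbl1 and Foxm1 minus the mean of its own control arrays, for the day 14, day 7 and control arrays; points are arrays and lines join group means. The E2f3 probe sets part at day 14, at -1.11 and 0.04, and the Foxm1 probe sets spread from -0.38 to 0.12 there.

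Leaving out arrays moved the day 14 counts little, while the day 7 count ranged from 0 to 4. With each of the 9 arrays left out in turn, 12 to 15 of the 21 probe sets were called against control at day 14, and 16 to 17 between the leukemic days. The 3 calls of day 7 were reduced to 0 by leaving out 1 of 3 arrays (the third control or either of the first 2 at day 7), and to 1 by leaving out control replicate 1 or the last day 7 replicate. It was also 0 with no filter on dim probe sets, 11 with array weights and 5 with a trended robust prior. The call at day 14 against control was kept in each alternative run for the tested Rb1, Ccne1 and Ccne2 probe sets. It was kept likewise for the bright E2f1, E2f3, E2f8 and Rbl1 probe sets. A requirement of a 2-fold change, run on the counts, was met by 3 probe sets (Ccne2, E2f3 and Rbl1).

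The rest of the pathway was described through 7 gene lists, with the brightest probe set for each gene. Over all named genes read this way, 48.6% were called at day 14 against control (32.1% lower, 16.6% higher), 2.71% at day 7 (0.901% lower, 1.81% higher) and 47.6% between the leukemic days (31.9% lower, 15.7% higher at day 14). The genes described here, read this way, gave 7 lower and 1 higher of 10 at day 14, 2 higher at day 7, and 8 lower and 1 higher between the leukemic days. Of 6 genes for DP partners and the other E2Fs, 3 fell at day 14: E2f7, the other atypical E2F (-0.98, SE 0.16), E2f6, a repressor (-0.70, SE 0.10), and Tfdp1, which encodes the DP1 partner of E2Fs (-0.48, SE 0.09). E2f5, a factor that works with p130, rose by 0.39 (SE 0.07), while E2f4 and Tfdp2 were at -0.09 and -0.01. At day 7, 0 of these 6 were called in limma, with 1 higher and 1 lower at an unadjusted p below 0.05.

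Among 11 G1 and S phase cyclins and kinases, 7 fell at day 14, 1 rose and 3 did not pass. Ccnd1, a D cyclin (-1.41, SE 0.12), Ccna2, the S phase cyclin (-0.67, SE 0.17), Cdk2, the cyclin E partner (-0.55, SE 0.08) and Cdk4 (-0.52, SE 0.08) fell, and Cdk6 rose by 0.28 (SE 0.06). Ccna2 was the one gene of this list called at day 7, where it averaged 862 ± 147, against 437 ± 117 in control (log2 change 0.998); it lost its call without the third control array, and without either of the first 2 day 7 arrays. Of 5 tested CDK inhibitor genes, Cdkn1a, for p21 (1.25, SE 0.12), and Cdkn2d, for p19 (0.85, SE 0.07), rose at day 14, and Cdkn2c, for p18, fell (-0.38). At day 7, Cdkn2c (0.81) and Cdkn1a (0.69) rose, and 0 of the list were called without day 7 replicate 1 and 1 without day 7 replicate 3. The Cdkn2c fall at day 14 was not called without control replicate 2 or day 14 replicate 2, under either other scaling, or with no filter on dim probe sets. Cdkn2a and Cdkn2b lay below the 40th percentile in all arrays.

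Of 8 genes of the MuvB core and its MYB partners, 4 fell at day 14, among them Mybl2, which joins MuvB in S phase (-0.75, SE 0.08), and Mybl1 (-0.56, SE 0.12). With quantile normalization 3 of the list fell and 1 rose, and with a common 75th percentile 2 fell and 1 rose. The count was 2 without control replicate 1, control replicate 2, day 14 replicate 1 or day 14 replicate 2. Mybl2 was also the one member called at day 7, where it rose by 0.42; leaving out any 1 day 7 array, or control replicate 1 or 3, ended that call. Of 8 genes around the ubiquitin ligases of cyclin E, E2F1 and FOXM1, 5 fell at day 14, or 3 with a common 75th percentile. Skp2, a substrate receptor (-1.62, SE 0.16), and Ccnf, which encodes cyclin F (-0.98, SE 0.15), had the lowest values. Fbxw7, which targets cyclin E for degradation, was at -0.21 and did not pass. At day 7, 0 of the 8 were called in limma, and 3 were higher and 0 lower at an unadjusted p below 0.05.

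The downstream genes were listed by phase, as G1/S and G2/M genes, and most genes of either list fell at day 14. Of 19 tested G1/S genes known as E2F targets, 19 fell at day 14 and 0 were called at day 7 in limma, where 6 were higher and 0 lower at an unadjusted p below 0.05; 5 were called higher without control replicate 2. The lowest day 14 values were those of Cdc6, which loads the replicative helicase (-1.62, SE 0.15), Tk1, thymidine kinase (-1.51, SE 0.19), Rrm2, a subunit of ribonucleotide reductase (-1.42, SE 0.18), and Tyms, thymidylate synthase (-1.35, SE 0.15). Of 19 tested G2/M genes known as FOXM1 targets, 19 rose at day 7, with Ube2c, a mitotic ubiquitin enzyme (1.31, SE 0.14), Birc5, survivin (1.13, SE 0.14), Cenpf, a kinetochore protein (1.05, SE 0.17), and Aurkb, a mitotic kinase (1.01, SE 0.21) at the top. At day 14, 16 of the 19 fell, led by Cdk1 (-1.39, SE 0.14) and Kif20a (-1.26, SE 0.16), and Cks2, a CDK-binding protein, rose by 0.35.

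The median log2 change of the G1/S list was -0.97 at day 14 and 0.12 at day 7. That of the G2/M list was -0.80 and 0.90, beside medians of -0.06 and 0.01 over all named genes. The day 7 count of the G2/M list fell to 5 without day 7 replicate 1 or day 7 replicate 2, to 7 without control replicate 3, to 12 without control replicate 1, and to 0 with no filter on dim probe sets. With 1 array left out, the G1/S list kept 18 to 19 calls at day 14 and the G2/M list 15 to 18, of which 14 to 17 were lower. The medians of the other lists at day 14 lay between -0.29 and -0.03, and at day 7 between 0.01 and 0.29. Between day 14 and day 7, 19 of 19 G1/S genes were lower at day 14, with Tk1 at -2.21 and Rrm2 at -1.83, and 18 of 19 G2/M genes, with Ube2c at -2.15 and Kif20a at -2.07; the medians were -1.11 and -1.64, beside -0.06 over all named genes. Differences between the lists were not tested.

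**Figure D4:**
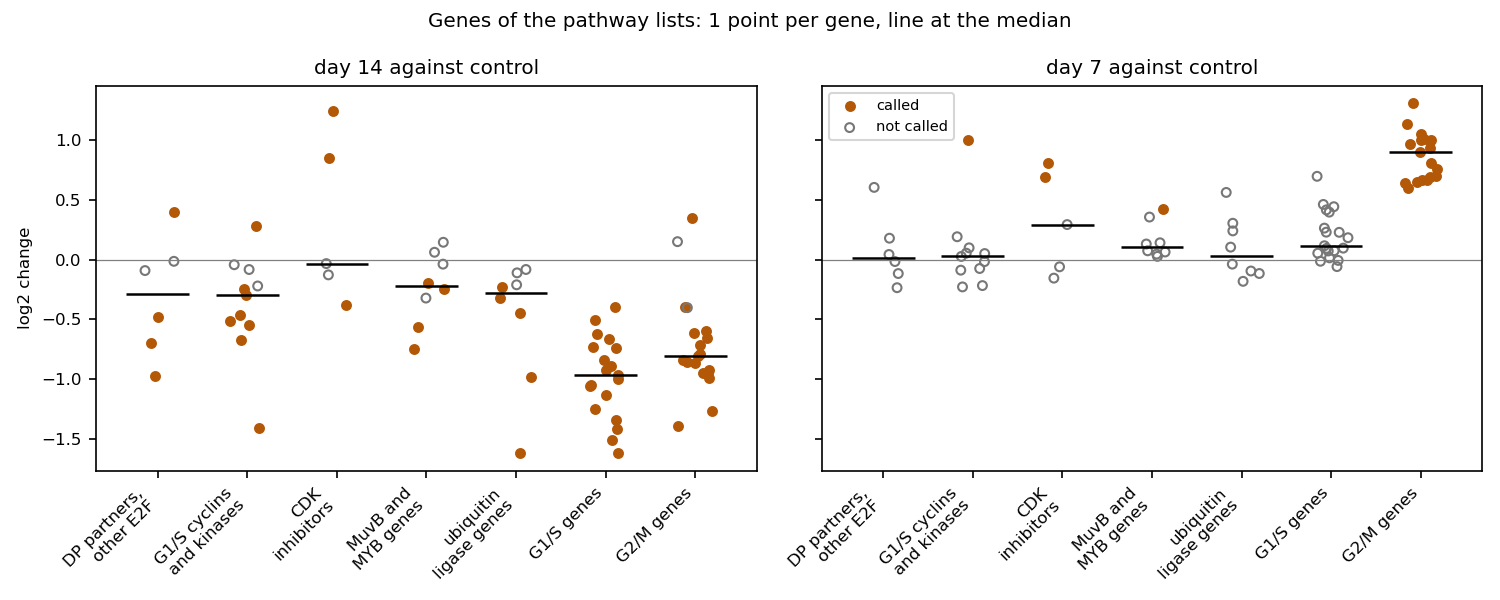
Log2 change of each tested gene of the 7 pathway lists at day 14 and at day 7, each against control; filled points were called, open points were not, and lines are medians. All 19 G2/M genes lie above 0 at day 7, and all 19 G1/S genes lie below 0 at day 14.

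The genes with the most similar course were found by the root mean square difference of log2 intensity, centred on control, over the 9 arrays and 12642 other genes. For Ccne2 these were Elp4, Fignl1 and Cdc6, at differences of 0.162, 0.164 and 0.175. For E2f1 they were Aarsd1, Lig1, the replicative DNA ligase, and Dut, which removes dUTP (0.0850, 0.0959 and 0.0962). Those nearest to Rb1 were Bbip1, Lin7c and Zfp868 (0.0746, 0.0838 and 0.0850), and those nearest to Foxm1 were Cldn7, Ube2s, a ubiquitin enzyme of mitosis, and Mmab (0.0883, 0.0895 and 0.0895).

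Markers of stem and progenitor cells and of other cell types were counted in the same way. Over all named genes, 48.6% were called at day 14 (32.1% lower, 16.6% higher) and 2.71% at day 7 (0.901% lower, 1.81% higher). With both directions together, the day 14 counts of stem and progenitor genes and of neutrophil and monocyte genes were near or below that 48.6%. Of 11 tested stem and progenitor genes, 3 fell and 1 rose at day 14, and their summed intensity was 12146 to 13228 at day 14, 12446 to 13308 at day 7 and 13722 to 14503 in control. The day 14 sums and the day 7 sums all lay below the control sums. The other 7 genes of this list were not called at day 14. Single genes of the list are not named here. Ly6a, for Sca-1, was not analysed here. Of 9 megakaryocyte and platelet genes, 7 rose at day 14, with sums of 2080.1 to 2377 at day 14, 988 to 1043 at day 7 and 813 to 909 in control. Of 7 tested B cell genes, 5 rose and 1 fell at day 14, with sums over 8 genes of 406 to 494 at day 14, 393 to 474 at day 7 and 274 to 278 in control, and Ms4a1 below the 40th percentile in every array.

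Of 13 neutrophil and monocyte genes, 5 rose and 2 fell at day 14, with sums of 10528 to 13297 at day 14, 9006 to 11055 at day 7 and 7805 to 9658 in control. Of 6 tested T and NK cell genes, 4 rose and 1 fell at day 14; the sums over 9 genes were 849.6 to 895 at day 14, 1019 to 1056 at day 7 and 809 to 933 in control, and Cd3g, Cd3d and Ncr1 never exceeded the 40th percentile. Of 3 tested erythroid genes 0 were called at day 14 in limma, with 1 lower at an unadjusted p below 0.05; the sums over 6 genes were 147 to 222 at day 14, 261 to 295 at day 7 and 188 to 923 in control, with Hba-a1, Alas2 and Slc4a1 never above the 40th percentile. At day 7, 3 B cell, 2 T and NK cell, 2 neutrophil and monocyte and 1 megakaryocyte genes rose, and 0 stem and progenitor genes were called in limma, with 3 lower at an unadjusted p below 0.05. The part of these cell types in the changes of the E cyclin, E2F, pocket protein and Foxm1 genes was not tested.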

How the data were processed

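The deposited file gives each probe set 1 normalized, linear intensity in each array. The labels' design text states that total RNA went through 2 rounds of amplification before labelling and that the authors normalized with Affymetrix Microarray Analysis Software v5.0. For 51.6% of the probe sets a pair of arrays or more share an identical deposited intensity, so how the arrays were normalized remains uncertain, and the scaling was varied. Repeated amplification can shorten copies toward the 3' end, which can dim probe sets that lie elsewhere.

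Probe sets were named through GEO's platform annotation (34945 with 1 symbol, 932 with several, 9160 with none), and each was analysed on its own. Intensities under 5.81, the 20th percentile over all values, were set to it, and log2 was taken. A probe set was tested if it exceeded the 40th percentile of its array (14.1 to 15.2) in at least 3 arrays. Groups were compared with limma 3.58.1 in R 4.3.3, in 1 model over 9 arrays without covariates. The steps were tested on simulated data. Array medians ran from 23.4 to 24.2. The 75th percentile ran from 114.6 to 119.2 in the day 14 arrays and from 126.8 to 130.2 in the day 7 and control arrays. Precision is limited by how many arrays there are.

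The members and the gene lists were chosen with earlier results of these data known. Each gene's brightest probe set had the highest mean log2 intensity. Named list genes with a called change were at most the 4 largest per direction. E2f4, Tfdp2 and Fbxw7, which were not called, were named outside that rule. Alternatives were quantile normalization, a common 75th percentile, no floor, an offset of 32, no filter or a 60th percentile filter, 1 probe set per gene, blocking on the replicate number, fitting only the groups compared, a trended robust prior, array weights, a 2-fold change and leaving out each array. The counts of list genes under these settings were added after seeing the data.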

Additional observations from a re-analysis of the deposited data

Results flagged for a closer look

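For 17 of the 21 tested probe sets the change from control differed between the leukemic days, by the limma contrast of day 14 against day 7, in which the control arrays cancel. In 16 the day 14 change was the lower. The log2 differences were -1.74 for Ccne2, -0.86 and -1.21 for the Ccne1 probe sets 1441910_x_at and 1416492_at, -1.20 and -0.97 for E2f1 1431875_a_at and 1417878_at, -1.12 and -1.21 for E2f2 1436434_at and 1455790_at, and -1.02 for E2f3 1434564_at. They were -1.12 and -0.69 for E2f8 1436186_at and 1444319_at, -1.35, -0.82 and -0.64 for Rbl1 1424156_at, 1425166_at and 1432604_at, and -0.36, -0.54 and -1.19 for Foxm1 1448833_at, 1417748_x_at and 1448834_at. Rb1 alone ran the other way, at 0.57. Of all tested probe sets 42.2% were called in this contrast.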

How the results depend on the processing

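Of the 33 called changes of single member probe sets, 25 kept their call and direction under every alternative run for them, and 0 reversed. The 2-fold requirement was run on the counts alone and is not among these alternatives. An offset of 32 shrank 15 of the 33 changes by over 1.5 times, all of them still called. For day 14 against control, the 13 called members became 8 with 1 probe set per gene (of 10 tested) and 3 at a 2-fold change, and the 12290 called probe sets became 6626 and 830. For day 14 against day 7, the 17 members became 9 under either of these settings, and the 11673 probe sets became 6455 and 813. For day 7 against control, the 3 members became 0 with no filter or at a 2-fold change, 1 with only the 2 groups compared, 5 with a trended robust prior, 11 with array weights, and 0 to 4 with 1 array left out. The 938 probe sets called there became 32 with no filter, 423 with 1 probe set per gene, 365 with only the 2 groups compared, 1429 with an offset of 32, 1659 with the trended prior, 3012 with array weights, 76 at a 2-fold change and 138 to 1036 with 1 array left out. The replicate number as a block gave 14, 2 and 17 called members for day 14 against control, day 7 against control and day 14 against day 7, and 458 called probe sets at day 7; it took the day 7 call of Foxm1 1448833_at (adjusted p 0.052) and left 12 of the 19 G2/M genes called at day 7. Deviations of same-numbered arrays from their group means correlated at -0.13 to 0.11, so the numbers are taken as names only. At a 2-fold change 5 of these 19 were called. Changes of opposite sign arose in uncalled values: Foxm1 1417748_x_at at day 14 against control (0.0092 with a common 75th percentile, -0.20 to 0.0011 with 1 array left out), E2f3 1427462_at at day 14 against control (-0.010 to 0.10 with 1 array left out), Rbl2 1425981_a_at between the leukemic days (0.077 with quantile normalization, 0.11 with a common 75th percentile, -0.063 to 0.016 with 1 array left out), and at day 7 against control Ccne2 (-0.0072 to 0.42), E2f3 1434564_at (-0.17 to 0.056) and E2f1 1447840_x_at (-0.097 to 0.013), each with 1 array left out. Apart from fewer probe sets or samples and the 2-fold requirement, the cause was not tested. Probe sets near the 40th percentile carry little signal over background, and their changes are uncertain.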
